A study of Homo sapiens with 8 samples.

Results

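The Wnt ligands, their receptors and their secreted and feedback inhibitors were examined in A549, an established epithelial cell line from a human lung adenocarcinoma, with and without a glucocorticoid. The 46 genes, of 19158 in the files, were chosen by name: every WNT ligand (19), every Frizzled receptor (10), the co-receptors LRP5 and LRP6, the R-spondin receptors LGR4, LGR5 and LGR6, the 9 secreted antagonists of the DKK, SFRP and WIF1 families in the files, and the feedback inhibitors AXIN2, RNF43 and ZNRF3. All 8 libraries came from wild-type cells of this single line in medium with serum and carried the batch label 1. In 4 of them the cells were untreated, and in the other 4 they were exposed to 1 µM dexamethasone for 48 h. Dexamethasone is a synthetic agonist of the glucocorticoid receptor. Each library was made from ribosome-depleted total RNA of its own culture well, and the wells were numbered 1, 3, 4 and 5 in both groups. Nothing in the labels says that the wells came from separate passages of the line, so p-values measure the spread between these wells, which may be technical.

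Wnt ligands are secreted lipid-modified proteins that bind a Frizzled receptor together with LRP5 or LRP6. This halts the destruction of beta-catenin, which then acts with TCF/LEF factors on target genes, while other Wnt signals act through planar cell polarity and calcium branches that do not need beta-catenin. DKK proteins occupy LRP5 and LRP6, SFRP proteins and WIF1 bind the ligands, RNF43 and ZNRF3 remove Frizzled receptors from the cell surface unless an R-spondin bound to an LGR receptor holds them back, and AXIN2 is a scaffold of the complex that destroys beta-catenin. In the lung the pathway is known for its part in branching and in the renewal of alveolar epithelium.

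The deposited values, which the labels call counts, are not whole numbers and were read as FPKM, in which fragments are corrected for transcript length and library size. This unit was inferred from the values, levels of different genes are set side by side only as far as it holds, and printed levels are scaled between libraries. FKBP5 and TSC22D3, glucocorticoid-induced genes that check the labels, were 23.6-fold and 16.4-fold higher with dexamethasone. The libraries numbered 5 stood apart from the rest of their own group on the second principal component (22.4 and 16.0, the others -12.9 to 2.85), which held 13.3% of the variance of the 2000 most variable genes. The summed level of 7 epithelial markers was 3356 to 6130 FPKM in untreated and 4473 to 7433 FPKM in dexamethasone libraries, although EPCAM itself was at 0.712 FPKM or less in all 8. Among these markers CDH1 was 2.7-fold higher with dexamethasone (adjusted p = 8.87e-05), and KRT19 and CLDN4 were 2.92-fold and 2.62-fold lower (adjusted p = 0.00119 and 0.00395). The 8 fibroblast markers summed to 3.27 to 4.79 and to 1.02 to 1.27 FPKM, with COL1A2 at 0 in every library, and the 5 endothelial markers to 0.0646 to 0.182 and to 0.0504 to 0.102 FPKM. The 5 leukocyte markers in the files summed to 7.52 to 11.2 and to 3.49 to 4.74 FPKM, with the pan-leukocyte gene PTPRC and the T cell gene CD3E at 0 in every library. The tested markers of both lists, COL1A1, THY1, CD68, CD14 and ITGAM, were lower with dexamethasone, and their part in the results on Wnt genes was not tested. The fibroblast marker DCN, which was too low to be tested, went the other way. It was at 0 in every untreated library and at 0.171 to 0.381 FPKM in dexamethasone libraries. COL1A1 and THY1 reached the minimum in untreated libraries alone, so their difference was built into that choice.

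Dexamethasone was followed by lower RNA of the main ligand WNT7B and of the inhibitors RNF43 and AXIN2, and by higher RNA of the antagonists DKK1 and DKK3. Of the 46 genes, 26 reached 0.5 FPKM in at least 4 libraries and were tested, and 15 of these passed an adjusted p of 0.05. Across all 12161 genes tested the share was 27%. Higher with dexamethasone were 4 of the 26 (12.1% of all genes tested), namely DKK1, DKK3, FZD4 and SFRP5, and lower were 11 (14.8% of all genes tested). The values of both groups did not overlap for 14 of the 26, where 31.6% of all genes tested did not overlap. The median difference of the 26 was -0.27 on the log2(FPKM + 1) scale, beside 0.003 over all genes tested. LGR6 and WNT10B passed the minimum through the untreated libraries alone, so a difference between the groups was built into their choice. FZD9 reached it in 4 untreated libraries and 1 dexamethasone library, so its choice also rested mainly on the untreated group. The counts describe the genes that could be tested rather than all 46. The other 20 genes did not reach the minimum: 6 of them (DKK2, DKK4, LGR5, SFRP2, WNT2 and WNT8A) were listed at 0 in all 8 libraries, 9 stayed under 0.1 FPKM and 5 reached 0.1 FPKM in at least 1 library. In bulk RNA, fewer cells with a transcript and less of it per cell cannot be told apart.

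**Figure D1:**
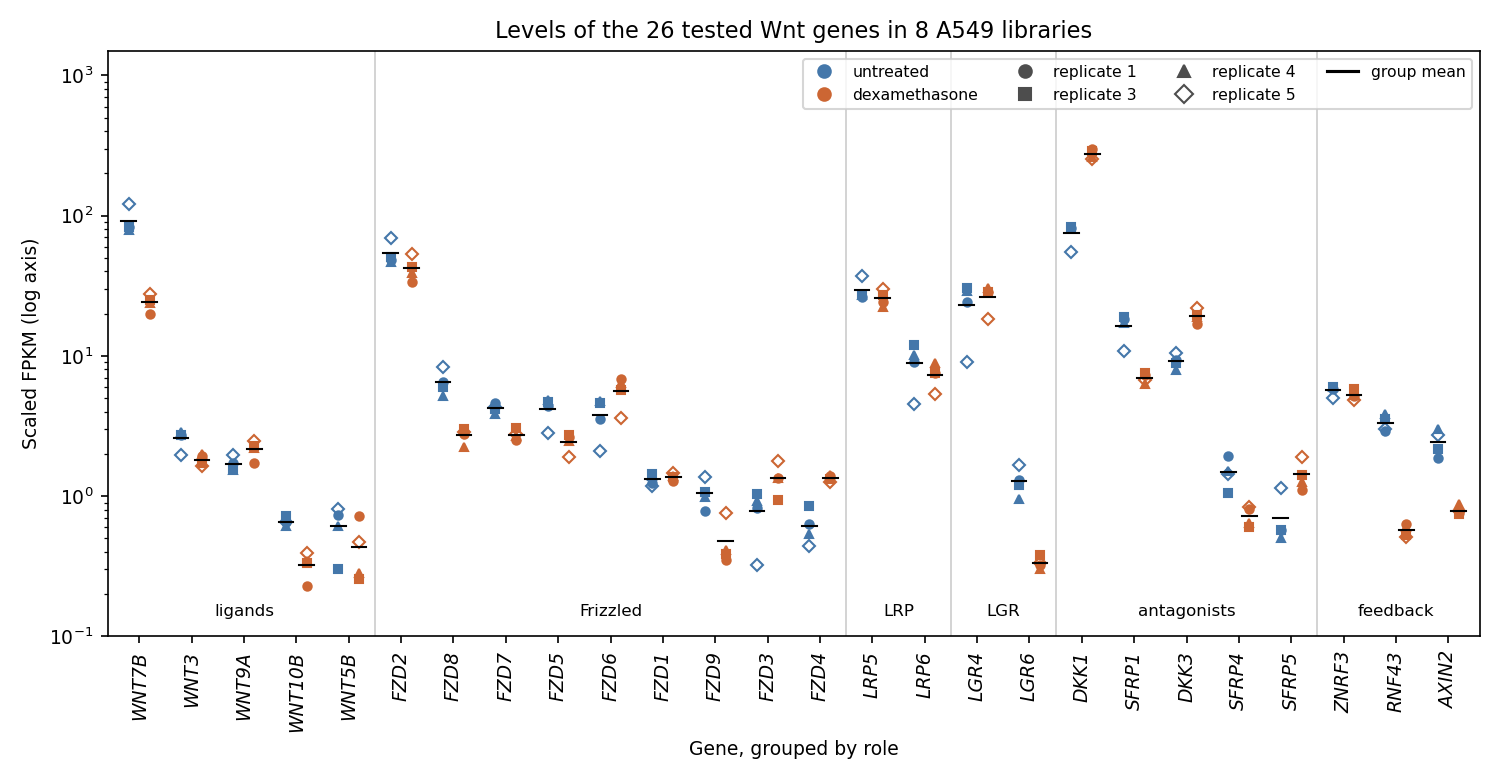
Scaled FPKM (log axis) of the 26 tested Wnt genes in each of the 8 libraries, untreated in blue and dexamethasone in orange, with a bar at each group mean and 1 symbol per replicate number. WNT7B has the highest untreated mean (92.1 FPKM) and DKK1 the highest mean with dexamethasone (276 FPKM), and the open diamonds of replicate 5 are often the farthest from their group.

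**Figure D2:**
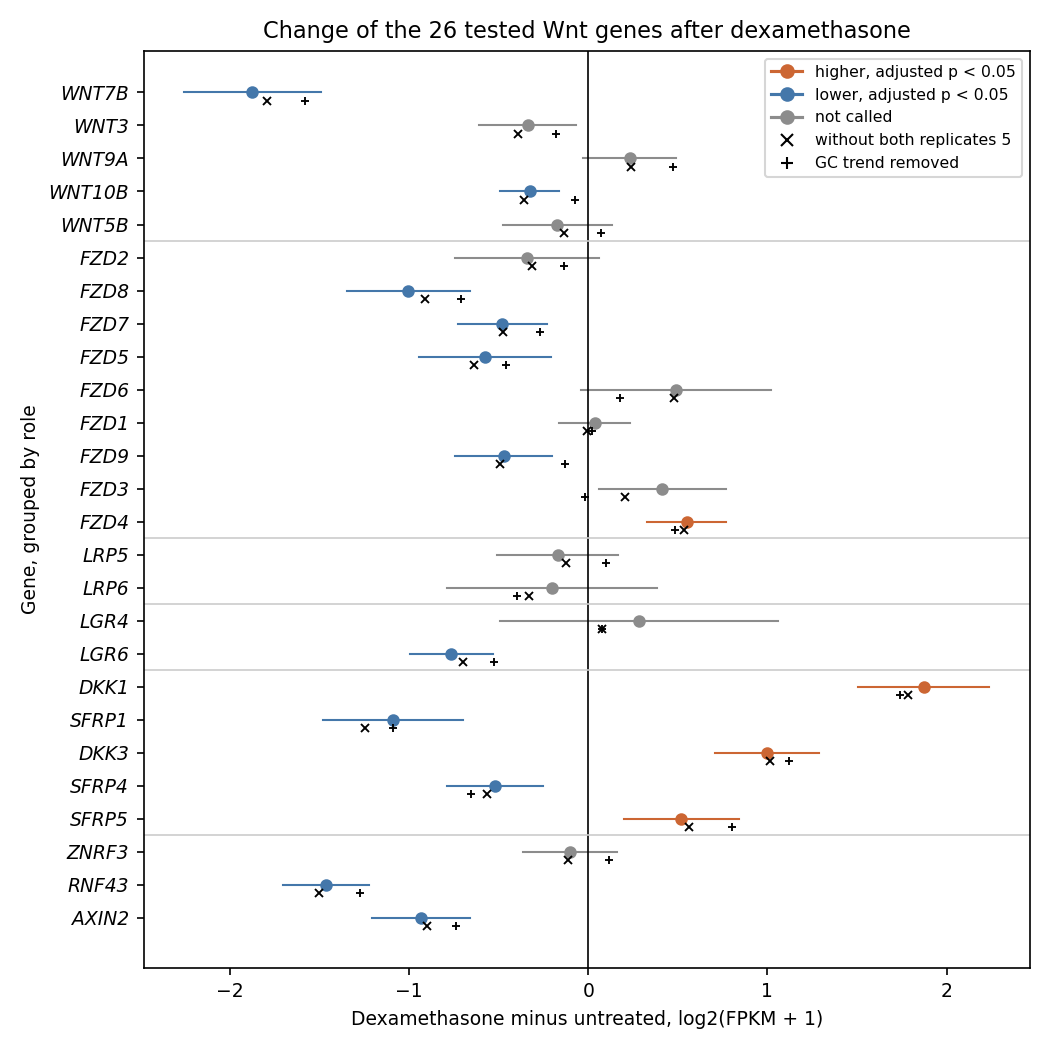
Difference between dexamethasone and untreated libraries on the log2(FPKM + 1) scale with its 95% confidence interval for the 26 tested Wnt genes, 4 libraries a group, coloured by whether the adjusted p passed 0.05. Crosses give the difference without the libraries numbered 5 and plus signs the difference after a trend on GC content was removed, which is -0.07 for WNT10B and -0.13 for FZD9, both called without that step.

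WNT7B, a ligand that lung epithelium makes during development, had the highest untreated mean of the 46 genes and, of the 5 ligands tested, the largest change (ENSG00000188064, build GRCh38, chromosome 22, 45920362 to 45977129, minus strand). DKK1 was at 0.978, 0.988 and 1.035 times the level of WNT7B in untreated replicates 1, 3 and 4, and at 0.455 times in untreated replicate 5. Untreated libraries 1, 3, 4 and 5 had 83.4, 83.6, 79.4 and 122 FPKM, and dexamethasone libraries 20, 25.1, 23.7 and 27.8 FPKM. Every untreated library was above every treated one, with untreated replicate 5 the highest of all. WNT7B fell 3.81-fold, from 92.1 ± 19.95 to 24.2 ± 3.26 FPKM (SD, n = 4), a log2 difference of -1.87 (SE 0.17, adjusted p = 4.88e-05). The remaining 18 ligands together gave 6.24 to 7.14 FPKM in untreated and 5.44 to 6.38 FPKM in dexamethasone libraries. WNT7B thus made up 93.0% ± 1.37 of ligand FPKM in untreated and 80.4% ± 1.44 in dexamethasone libraries (SD, n = 4).

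WNT10B, a ligand of the beta-catenin branch known from the control of fat and bone formation, was the other ligand to fall. Its levels were 0.655, 0.720, 0.608 and 0.650 FPKM in untreated libraries 1, 3, 4 and 5, and 0.228, 0.333, 0.345 and 0.390 FPKM in dexamethasone libraries. The groups did not overlap, and the mean was 2.03-fold lower (log2 difference -0.33, SE 0.0738, adjusted p = 0.00947). With a trend on GC content removed from each library the difference was -0.07 (adjusted p = 0.712), so this call depended on that choice. WNT10B also reached the minimum in untreated libraries alone, so a difference between the groups was built into its selection.

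WNT3, also a ligand of the beta-catenin branch, had 2.75, 2.71, 2.89 and 1.96 FPKM in untreated libraries and 1.92, 1.71, 2.0 and 1.64 FPKM with dexamethasone. Untreated replicate 5 lay within the treated range while the other untreated libraries lay above it. The difference of -0.34 missed the threshold (95% interval -0.61 to -0.07, adjusted p = 0.0658), and was -0.42 (adjusted p = 0.00980) without untreated replicate 5. WNT9A had 1.55 to 1.96 FPKM in untreated and 1.72 to 2.49 FPKM in dexamethasone libraries, a difference of 0.23 (interval -0.03 to 0.49, adjusted p = 0.165) that became 0.47 (adjusted p = 0.0042) with the GC trend removed. WNT5B, which acts mostly outside the beta-catenin branch, had 0.304 to 0.804 and 0.257 to 0.718 FPKM, a difference of -0.17 (interval -0.47 to 0.13, adjusted p = 0.367). The values of WNT5B varied within each group as much as between them.

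The other 14 ligands stayed under the minimum for testing, and 5 of them reached 0.1 FPKM in at least 1 library. WNT4, a ligand of gonad and kidney development, had 0.302, 0.181, 0.121 and 0.217 FPKM in untreated and 0.0609, 0.0289, 0.0640 and 0.0490 FPKM in dexamethasone libraries. The groups did not overlap at this low level, and the adjusted p was 0.0133 when no minimum was applied. WNT6 was listed at 0, 0.0815, 0.10 and 0.172 FPKM in untreated and 0.178, 0.215, 0.265 and 0.352 FPKM in dexamethasone libraries (adjusted p = 0.0387 with no minimum). The highest untreated value of WNT6 was just below the lowest treated one. WNT5A, the best known ligand of the branches that do not use beta-catenin, had 0.123 to 0.422 FPKM in untreated and 0.165 to 0.348 FPKM in dexamethasone libraries. WNT2B had 0.0760 to 0.507 and 0.0976 to 0.269 FPKM, and WNT11 had 0.0757 to 0.308 and 0.148 to 0.560 FPKM. These last 3 overlapped between groups and were not called without a minimum (adjusted p = 0.725, 0.785 and 0.580). WNT7A stayed under 0.1 FPKM throughout, at 0.0668 to 0.0962 FPKM in untreated libraries and at 0 in all dexamethasone libraries but replicate 1 (0.0189 FPKM), with an adjusted p of 0.00191 when no minimum was applied. Depth could not be fixed, so the counting error behind such low values, and its part in the p-values without a minimum, is unknown. Several ligands under 0.1 FPKM lie beside one with a higher level: WNT9B starts 46 bases from WNT3, WNT10A lies 6.13 kb from WNT6, WNT1 lies 6.69 kb from WNT10B and WNT3A 59.2 kb from WNT9A.

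Of the 9 Frizzled receptors tested, 4 fell, 1 rose and 4 missed the threshold, where 27% of all genes tested were called. FZD2 supplied most of the receptor RNA, with 48.5, 50.8, 46.5 and 69.7 FPKM in untreated libraries and 33.8, 43.4, 39.1 and 53.0 FPKM with dexamethasone. Replicate 5 was the highest library of each group, and the treated replicate 5 lay inside the untreated range. The FZD2 difference was -0.34 (interval -0.74 to 0.06, adjusted p = 0.188), and it was -0.31 (adjusted p = 0.0393) without both libraries numbered 5. With the GC trend removed it was -0.14 (adjusted p = 0.275). FZD2 made up 70.2% ± 4.52 of Frizzled FPKM in untreated and 69.6% ± 5.17 in dexamethasone libraries.

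FZD8, a receptor of the beta-catenin branch, had the largest change among the receptors of its family. It had 6.49, 6.04, 5.15 and 8.36 FPKM in untreated and 2.76, 3.02, 2.22 and 2.86 FPKM in dexamethasone libraries. All untreated values exceeded all treated ones, and FZD8 fell 2.40-fold (log2 difference -1.0, SE 0.153, adjusted p = 0.00109). FZD7, known from stem cells, had 4.60, 4.15, 3.87 and 4.30 FPKM against 2.49, 3.04, 2.67 and 2.79 FPKM. The FZD7 groups did not overlap either, and the difference was -0.48 (SE 0.111, adjusted p = 0.0104), or -0.27 (adjusted p = 0.0942) with the GC trend removed. FZD5, the closest relative of FZD8, had 4.39, 4.69, 4.81 and 2.80 FPKM against 2.65, 2.72, 2.48 and 1.91 FPKM. Replicate 5 was the lowest library of each group, and untreated replicate 5 exceeded the highest treated library by little. The FZD5 difference of -0.58 (SE 0.164, adjusted p = 0.0277) missed the threshold without any 1 of 6 libraries, replicates 1, 3 and 4 of the untreated and 1, 4 and 5 of the treated group (adjusted p up to 0.0735). It also missed it without scaling between libraries (adjusted p = 0.0865) and with the GC trend removed (adjusted p = 0.0847). FZD9 had 0.781, 1.07, 0.980 and 1.37 FPKM against 0.351, 0.388, 0.416 and 0.763 FPKM. Treated replicate 5 came close to the lowest untreated library, and the difference was -0.47 (SE 0.120, adjusted p = 0.0172) or -0.13 (adjusted p = 0.358) with the GC trend removed. It also missed the threshold without treated replicate 1, 3 or 4 (adjusted p up to 0.0643). FZD9 reached the minimum in 4 untreated libraries and 1 treated library, so its choice rested mainly on the untreated group.

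FZD4, a receptor that also binds norrin in retinal vessels, was the Frizzled gene that rose. It had 0.630, 0.851, 0.533 and 0.439 FPKM in untreated and 1.4, 1.33, 1.43 and 1.26 FPKM in dexamethasone libraries. The groups stood well apart and the mean was 2.21-fold higher (log2 difference 0.55, SE 0.0981, adjusted p = 0.00270). FZD4 overlaps the protease gene PRSS23 on the opposite strand, whose level moved the other way (91.1 ± 36.7 to 44.6 ± 0.728 FPKM, log2 difference -0.94, adjusted p = 0.0126). The sources used here do not say whether the counting used strand, and its part in the FZD4 value was not tested.

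FZD6, which acts in planar polarity of skin and hair, had 3.53, 4.64, 4.76 and 2.11 FPKM in untreated and 6.82, 5.70, 6.36 and 3.60 FPKM in dexamethasone libraries. Replicate 5 was again the lowest of each group, and the difference of 0.49 had an interval of -0.04 to 1.02 (adjusted p = 0.155). Without both libraries numbered 5 it was 0.48 (adjusted p = 0.0147), and with the GC trend removed it was 0.18 (adjusted p = 0.164). FZD3, which guides axons, had 0.324 to 1.04 FPKM in untreated and 0.941 to 1.78 FPKM in dexamethasone libraries (difference 0.41, interval 0.06 to 0.77, adjusted p = 0.0822), and its difference was -0.02 with the GC trend removed. FZD1 had 1.18 to 1.45 and 1.28 to 1.47 FPKM (difference 0.04, interval -0.16 to 0.24, adjusted p = 0.781). FZD10 was under 0.1 FPKM in all libraries.

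The co-receptors did not pass the test. LRP5 had 29.4 ± 5.04 FPKM in untreated and 25.9 ± 3.37 FPKM in dexamethasone libraries (SD, n = 4), a difference of -0.17 with an interval of -0.51 to 0.17 (adjusted p = 0.422). With the GC trend removed the LRP5 difference was 0.10. LRP6 had 9.08, 12.0, 10.2 and 4.51 FPKM against 7.55, 7.49, 8.91 and 5.35 FPKM, with replicate 5 the lowest of each group. Its difference was -0.20 (interval -0.79 to 0.38, adjusted p = 0.585). It ranged from -0.05 without untreated replicate 3 to -0.45 without untreated replicate 5 (adjusted p = 0.904 and 0.0573). The level of LRP5 relative to LRP6 was 2.28 to 2.91 in untreated replicates 1, 3 and 4 and 8.19 in untreated replicate 5, and 3.19, 3.60, 2.52 and 5.63 in dexamethasone replicates 1, 3, 4 and 5. Replicate 5 had the highest ratio of each group.

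The R-spondin receptors differed from each other. LGR4, the abundant one, had 24.3, 30.4, 29.1 and 9.12 FPKM in untreated and 28.7, 28.4, 30.4 and 18.3 FPKM in dexamethasone libraries. Both libraries numbered 5 were far below the rest, and the others lay between 24.3 and 30.4 FPKM in both groups. The LGR4 difference was 0.28 (interval -0.49 to 1.06, adjusted p = 0.567), and -0.07 without untreated replicate 5. LGR6, which marks stem cells of hair follicles and airway, had 1.30, 1.20, 0.952 and 1.67 FPKM in untreated libraries and 0.324, 0.379, 0.303 and 0.333 FPKM with dexamethasone. The treated values of LGR6 were close together and far under all untreated ones. LGR6 fell 3.82-fold (log2 difference -0.76, SE 0.103, adjusted p = 5.16e-04). It reached the minimum in untreated libraries alone, so a difference between the groups was built into its choice. LGR5 was listed at 0 in every library.

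All 5 secreted antagonists that could be tested were called, 3 upward and 2 downward, where 27% of all genes tested were called. DKK1, which blocks LRP5 and LRP6, was the most abundant of the 46 genes with dexamethasone (ENSG00000107984, chromosome 10, 52314296 to 52318042, plus strand). It had 81.6, 82.6, 82.2 and 55.4 FPKM in untreated libraries 1, 3, 4 and 5, and 298, 291, 262 and 254 FPKM in dexamethasone libraries. Untreated replicate 5 was the lowest library, and the lowest treated library was far above the highest untreated one. DKK1 rose 3.66-fold, from 75.5 ± 13.4 to 276 ± 21.4 FPKM (SD, n = 4), a log2 difference of 1.87 (SE 0.163, adjusted p = 3.63e-05). DKK1 made up 73.0% ± 2.25 of antagonist FPKM in untreated and 90.6% ± 1.21 in dexamethasone libraries. DKK3, a divergent family member whose effect on Wnt signals varies between cell types, had 9.33, 8.97, 7.99 and 10.5 FPKM against 16.9, 19.7, 19.1 and 21.8 FPKM. The groups did not overlap, and DKK3 rose 2.11-fold (log2 difference 1.0, SE 0.129, adjusted p = 3.85e-04).

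The SFRP genes, whose products bind Wnt ligands outside the cell, went in different directions. SFRP1 had 18.3, 18.8, 17.1 and 10.8 FPKM in untreated and 7.27, 7.51, 6.34 and 6.74 FPKM in dexamethasone libraries. Untreated replicate 5 was the lowest of its group yet above every treated library, and SFRP1 fell 2.34-fold (log2 difference -1.09, SE 0.175, adjusted p = 0.00156). SFRP4 had 1.95, 1.06, 1.5 and 1.43 FPKM against 0.810, 0.604, 0.646 and 0.831 FPKM. It fell 2.06-fold without overlap between groups (log2 difference -0.52, SE 0.119, adjusted p = 0.0105). SFRP5 had 0.574, 0.577, 0.499 and 1.14 FPKM against 1.11, 1.41, 1.27 and 1.92 FPKM, so untreated replicate 5 was just above treated replicate 1. SFRP5 rose 2.05-fold (log2 difference 0.52, SE 0.144, adjusted p = 0.0247) and was the called gene whose groups overlapped. It missed the threshold without untreated replicate 1, 3 or 4 or treated replicate 3 or 4 (adjusted p up to 0.0699).

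**Figure D3:**
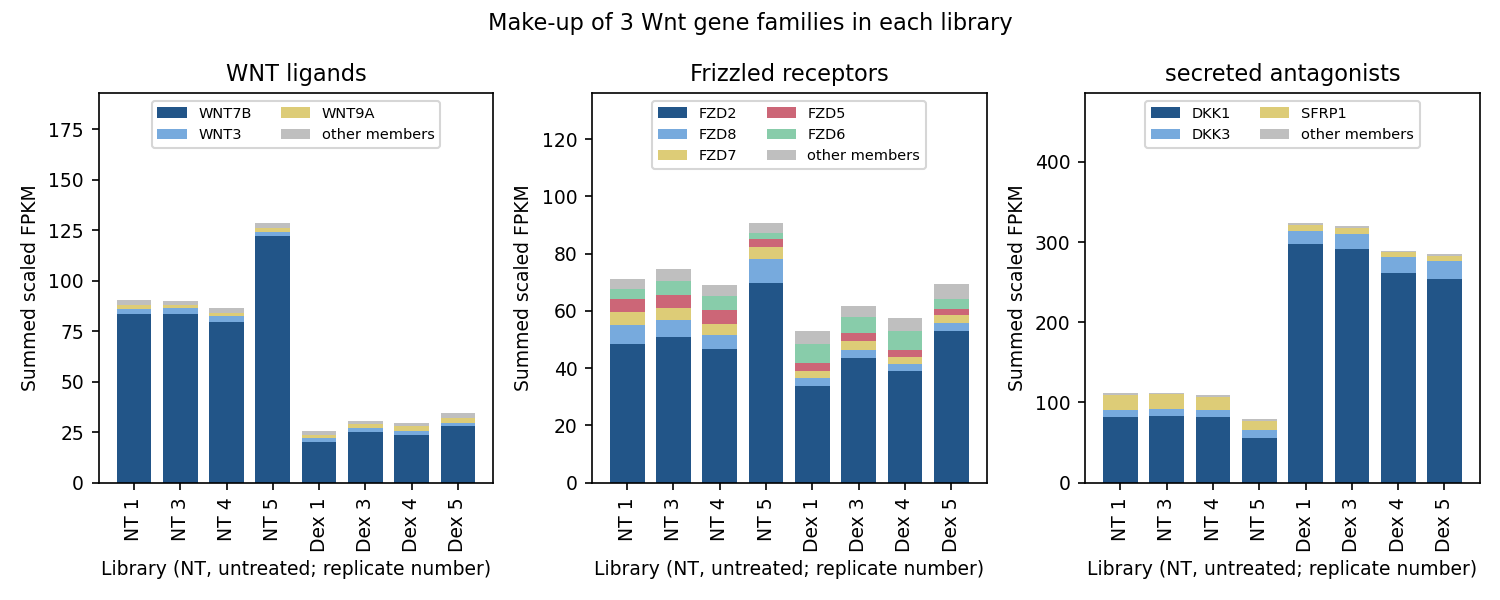
Summed scaled FPKM of the WNT ligands, the Frizzled receptors and the secreted antagonists in each library (NT, untreated; Dex, dexamethasone), stacked by gene, each axis starting at 0. Ligand sums were 86.6 to 128 FPKM in untreated and 25.4 to 34.2 FPKM in dexamethasone libraries, and antagonist sums 79.4 to 112 and 285 to 324 FPKM, with WNT7B and DKK1 as the main part of each.

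Within single libraries, which removes any scaling between them, DKK1 was at 0.455 to 1.03 times the level of WNT7B in untreated cells and at 9.12 to 14.9 times with dexamethasone. Untreated replicates 1, 3 and 4 lay close to equal levels of these genes, and untreated replicate 5 lay lowest. The antagonists other than DKK1 summed to 23.9 to 30.1 FPKM in untreated and 26.1 to 31.3 FPKM in dexamethasone libraries, with DKK3 higher and SFRP1 lower.

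The feedback inhibitors split. RNF43, a ubiquitin ligase of the cell membrane, showed the largest fold difference of the 26 tested genes (ENSG00000108375, chromosome 17, 58352500 to 58417595, minus strand). It had 2.94, 3.56, 3.88 and 3.00 FPKM in untreated and 0.634, 0.530, 0.602 and 0.512 FPKM in dexamethasone libraries. The treated libraries were uniformly low, and RNF43 fell 5.87-fold (log2 difference -1.46, SE 0.106, adjusted p = 1.19e-05). ZNRF3, its close relative with the same task, had 5.72 ± 0.471 FPKM in untreated and 5.26 ± 0.405 FPKM in dexamethasone libraries (SD, n = 4), a difference of -0.10 with an interval of -0.36 to 0.16 (adjusted p = 0.540). ZNRF3 was at 1.56 to 1.97 times the level of RNF43 in untreated and at 8.12 to 11.0 times in dexamethasone libraries. AXIN2, widely used as a readout of beta-catenin activity, had 1.88, 2.17, 3.00 and 2.73 FPKM against 0.754, 0.739, 0.876 and 0.787 FPKM. No treated library came near the untreated range, and AXIN2 fell 3.10-fold (log2 difference -0.93, SE 0.121, adjusted p = 4.12e-04). RNF43 and AXIN2 each overlap an unnamed protein-coding gene on their own strand in the annotation, whose part in these values was not tested. Among the called genes, DKK1, DKK3, FZD8, RNF43, SFRP1 and SFRP4 overlap genes on the opposite strand in GENCODE v44, as FZD4 does. Among tested genes not called, FZD3, FZD6, LGR4, LRP6, WNT5B and ZNRF3 do so too. Without knowledge of strand the reads of such overlapping genes cannot be told apart. USP47, on the strand opposite to DKK3, had 4.28 ± 1.25 FPKM in untreated and 6.21 ± 1.52 FPKM in dexamethasone libraries (adjusted p = 0.155). FBXL14, on the strand opposite to WNT5B, had 7.14 ± 0.737 FPKM in untreated and 4.63 ± 0.587 FPKM in dexamethasone libraries (adjusted p = 0.0130). Their part in the values of DKK3 and WNT5B was not tested.

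Promoter sequence was available for 30 of the 46 genes, from RefSeq on build GRCh38.p14, as the 250 bases upstream of each annotated start. Both strands were searched for the glucocorticoid receptor palindrome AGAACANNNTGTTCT, the single motif AGAACA, the TCF/LEF core CTTTGAT and the TATA box TATAAA, the last of which was added after sequences and values had been seen. The palindrome and the TCF/LEF core were in none of these windows, and among all 35116 windows they were in 0.00285% and 2.26%. AGAACA was in windows of RNF43, WIF1 and WNT8B (12.4% of all windows) and TATAAA in windows of DKK1, FZD8 and WNT5B (10.7% of all windows). A match or its absence describes these letters in this window and says nothing of binding. The promoters of DKK1, the gene with the largest rise among the 26, and FZD8, the Frizzled gene with the largest fall, are shown because both hold TATAAA, in capitals, with its first base 30 and 29 bases upstream of the start. They were chosen after the values were known. The DKK1 window is chr10:52314031-52314280 on the plus strand, with 62.8% GC, and the FZD8 window is chr10:35642297-35642546 on the minus strand, with 65.2% GC. They read from 5′ to 3′ as follows.
DKK1: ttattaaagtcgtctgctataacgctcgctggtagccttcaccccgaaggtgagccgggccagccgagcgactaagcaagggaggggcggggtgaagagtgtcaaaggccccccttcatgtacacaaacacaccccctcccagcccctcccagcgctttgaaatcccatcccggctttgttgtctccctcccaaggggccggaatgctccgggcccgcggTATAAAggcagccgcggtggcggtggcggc
FZD8: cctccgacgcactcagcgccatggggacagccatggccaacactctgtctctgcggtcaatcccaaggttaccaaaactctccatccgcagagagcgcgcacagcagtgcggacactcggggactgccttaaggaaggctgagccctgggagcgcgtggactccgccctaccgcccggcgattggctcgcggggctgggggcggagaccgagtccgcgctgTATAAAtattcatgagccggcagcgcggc

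The wider pathway was examined through 6 lists that together hold 116 other genes in the files. Of these 88 were tested, 7 rose and 23 fell, where 12.1% of all genes tested rose and 14.8% fell. ROR2, APC2, VANGL2, TNFRSF19 and EPHB3 reached the minimum in untreated libraries alone and SNAI2 in dexamethasone libraries alone, so a difference was built into their choice. Among 25 genes commonly cited as beta-catenin targets, 17 were tested, 1 rose and 9 fell, with a median difference of -0.70, beside 0.003 over all genes tested. TNFRSF19 and EPHB3, 2 of the 9, are among those that entered through untreated libraries alone, and the median is the value of EPHB3. The matrix protease MMP7 had 29.1 ± 3.23 FPKM in untreated and 9.995 ± 0.790 FPKM in dexamethasone libraries (log2 difference -1.45, adjusted p = 2.80e-05). SOX9, a transcription factor of lung progenitors, had 11.3 ± 0.703 and 3.29 ± 0.329 FPKM (-1.52, adjusted p = 1.57e-05). FOSL1, an AP-1 subunit, had 27.6 ± 3.23 and 7.71 ± 1.03 FPKM (-1.72, adjusted p = 1.69e-05). BAMBI, a decoy receptor of TGF-beta signals, differed by -1.56, the ephrin receptor EPHB2 by -1.54 and the hyaluronan receptor CD44 by -1.33 (adjusted p = 4.51e-05, 4.24e-04 and 3.13e-04). For all of these the treated libraries were below all untreated ones. SNAI2, a repressor known from epithelial-mesenchymal transition, went the other way: it had 0.384, 0.430, 0.447 and 0.187 FPKM in untreated and 6.31, 4.83, 5.51 and 4.00 FPKM in dexamethasone libraries. It rose 14.3-fold (log2 difference 2.17, SE 0.138, adjusted p = 6.72e-06). The 7 tested genes of this list that were not called were CCND1, ID2, JAG1, MYC, NKD2, PPARD and TCF4.

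Among the 9 tested of 17 genes for Wnt secretion and co-receptors, 1 rose and 3 fell (median -0.26), where 27% of all genes tested were called. ROR2, the receptor tyrosine kinase for WNT5A, fell from 0.850 ± 0.0765 to 0.207 ± 0.0805 FPKM (adjusted p = 3.85e-04). It reached the minimum in untreated libraries alone, so a difference was built into its choice. The co-receptor PTK7 fell from 2.34 ± 0.803 to 0.621 ± 0.216 FPKM (adjusted p = 0.00250). The glypican GPC6 rose from 1.07 ± 0.290 to 3.35 ± 0.425 FPKM (adjusted p = 3.85e-04). RSPO3, the secreted ligand of LGR4 and LGR6, was named after its values were seen. It had 33.1, 32.9, 37.5 and 17.3 FPKM in untreated and 16.4, 16.9, 16.5 and 13.5 FPKM in dexamethasone libraries, with untreated replicate 5 just above the treated range (log2 difference -0.84, adjusted p = 0.0203). Among 12 other secreted or membrane antagonists only 3 could be tested, and 1 fell: TPBG, a membrane protein that hinders LRP6, from 8.54 ± 0.388 to 5.12 ± 1.0 FPKM (adjusted p = 0.00623). TRABD2A, a protease that clips Wnt ligands, had 36.0 ± 14.5 and 57.5 ± 3.35 FPKM (difference 0.77, interval 0.11 to 1.42, adjusted p = 0.0796), and the difference was 0.99 (adjusted p = 0.0169) without untreated replicate 5. IGFBP4, which binds Frizzled and LRP6 as well as insulin-like growth factors, had 1152 ± 329 and 1009 ± 208 FPKM (difference -0.18, interval -0.69 to 0.34, adjusted p = 0.593).

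**Figure D4:**
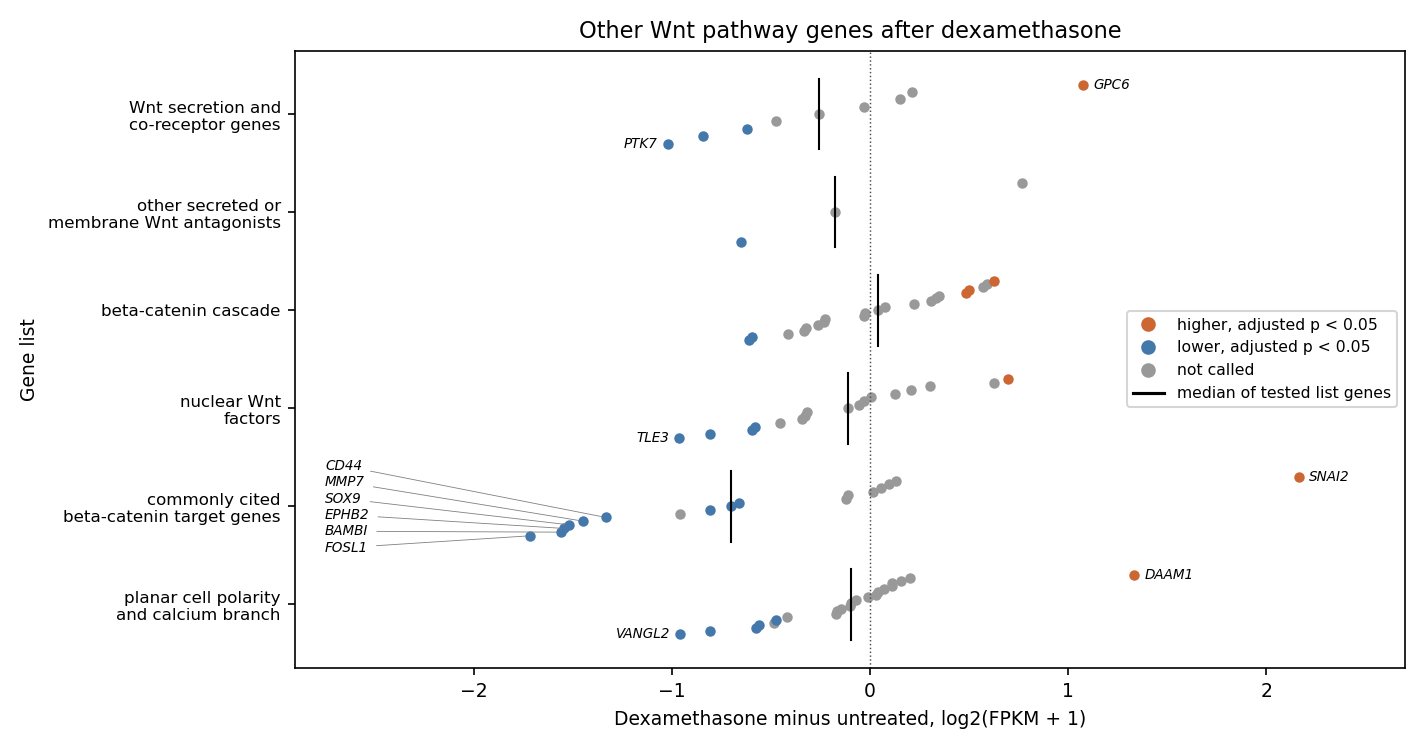
Difference between dexamethasone and untreated libraries on the log2(FPKM + 1) scale for the tested genes of 6 Wnt pathway lists, 1 point a gene, with a bar at each list's median and names at called genes with a difference of 0.9 or more. The median is lowest for the commonly cited beta-catenin targets (-0.70). In that list SNAI2, at 2.17, is the only called gene that rose, while some genes that were not called also had positive differences.

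All 21 genes of the beta-catenin cascade were tested, 3 rose and 2 fell (median 0.04), a share of calls near the 27% of all genes tested. The scaffold APC rose from 2.53 ± 0.721 to 4.39 ± 0.538 FPKM (adjusted p = 0.0201). Its relative APC2 fell from 0.831 ± 0.0506 to 0.215 ± 0.0876 FPKM (adjusted p = 4.43e-04). APC2 reached the minimum in untreated libraries alone, so a difference was built into its choice. The tankyrase TNKS, which marks axin proteins for destruction, rose from 7.15 ± 1.20 to 10.5 ± 0.795 FPKM (adjusted p = 0.0249). With the GC trend removed the calls of APC (adjusted p = 0.0761) and APC2 (adjusted p = 0.230) were lost, and those of APC and TNKS were also lost without treated replicate 1 or 4 (adjusted p = 0.0518 to 0.0644). The call of TNKS was lost too without untreated replicate 1 (adjusted p = 0.0615), without treated replicate 3 (adjusted p = 0.0527) and without scaling (adjusted p = 0.0835). Of 18 nuclear factors 17 were tested, 1 rose and 4 fell (median -0.11), where 27% of all genes tested were called. The co-activator BCL9L rose from 44.5 ± 5.93 to 72.5 ± 6.46 FPKM, the co-repressor TLE3 fell from 6.79 ± 0.635 to 2.99 ± 0.171 FPKM, and TBL1X, a subunit of co-repressor complexes, fell from 17.2 ± 1.86 to 11.0 ± 1.07 FPKM (adjusted p = 0.00448, 2.38e-04 and 0.00638). Of 27 genes of the planar polarity and calcium branch 22 were tested, 1 rose and 5 fell (median -0.10), where 27% of all genes tested were called. The polarity genes VANGL2 (1.64 ± 0.158 to 0.356 ± 0.0486 FPKM) and PRICKLE2 (3.58 ± 0.687 to 1.60 ± 0.180 FPKM) fell, and the formin DAAM1 rose from 2.29 ± 0.696 to 7.33 ± 2.05 FPKM (adjusted p = 3.50e-05, 0.00200 and 0.00201). VANGL2 reached the minimum in untreated libraries alone, so a difference was built into its choice.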

How the data were processed

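Libraries of 8 A549 wells, 4 untreated and 4 with dexamethasone, were grouped by the labels. Per the submitters' processing notes, reads were checked with FastQC 0.11.9, trimmed with cutadapt 3.4, aligned to GRCh38 with STAR 2.7.9a and quantified with featureCounts of Subread 2.0.3, and DESeq2 1.32.0 is named. The labels call the deposited values counts, but they are not whole numbers. They were read as FPKM deposited by the authors, a unit inferred from the values, and how they were scaled by length, which annotation was used and whether strand was used are not given in the sources used here.

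Depth could not be fixed. Steps between low values of genes with 1 annotated transcript matched 24980000 to 28660000 fragments per library when 10000000 to 40000000 were searched, with 45.2% to 50.0% of values within 0.1 of a whole number (20% by chance). The wider search to 80000000, run first, matched 25350000 to 75180000 with 47.4% to 53.6%. The narrower search was chosen after this was seen. The labels state 40000000 to 50000000 read pairs. Whole reads were not recovered, so no count test was run and no intervals on low values are given.

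FPKM were scaled between libraries with an unweighted version of the TMM method (0.3 of M and 0.05 of A values cut at each end), with factors of 0.831 to 1.07, and all printed levels are scaled FPKM. Printing scaled in place of deposited values was chosen after values had been seen. On deposited values FZD2, SFRP5 and WNT9A do not overlap between groups and FZD5 does. A gene was tested if its deposited FPKM reached 0.5 in no fewer than 4 libraries (3 where libraries were left out). The test ran on log2(FPKM + 1) with limma 3.58.1 in R 4.3.3 (eBayes with trend and robust, group as the only term, two-sided, Benjamini-Hochberg over 12161 genes, called at an adjusted p under 0.05). Log2 differences understate changes of low genes, and folds are ratios of mean FPKM. On simulated data of 4 against 4 libraries and 12103 genes, with changed genes drawn from those with a mean of at least 2 FPKM, 21% of genes changed 1.5-fold, 84.5% changed 2-fold and 100% changed 4-fold were recovered, with 1, 8 and 8 false calls. Most of the 46 Wnt genes lie below that level. The simulated noise was independent between genes, with the typical spread of untreated libraries at each level. It held no deviation shared across a library, so these figures describe a cleaner setting than the data.

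Named were every tested Wnt gene, untested ones reaching 0.1 FPKM, FKBP5 and TSC22D3, and of each pathway list the 3 genes with the smallest p and any called with a log2 difference of at least 1. The genes and lists were chosen with earlier results of these data known. RSPO3, PRSS23, USP47, FBXL14, WNT7A, TNFRSF19, EPHB3, single cell type markers and the neighbouring ligands were named after their values were seen. So were MYC and the other uncalled beta-catenin targets. Gene identifiers were matched to GENCODE v44 (19065 genes, all 46 Wnt genes), which gave strand, overlaps and GC content. Coordinates are those of the files, which equal GENCODE v44 for 10 of the 46 and overlap it for all. Alternatives were another pseudocount (0.1), other minimum levels, no or median-ratio scaling, the replicate number as a block, removal of a trend on GC content (lowess, span 0.3), plain moderation and leaving out libraries. Single genes were followed through them only if they were tested Wnt genes or pathway genes named by the rule. Calls of genes named later, such as RSPO3 and CTNNB1, were not followed.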

Additional observations from a re-analysis of the deposited data

Results flagged for a closer look

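Within groups of 4 libraries, a value far from its 3 companions was looked for by Dixon's criterion for 4 values at 95%. This covered the 26 tested Wnt genes and the 22 other pathway genes named by the rule above. Further genes named in the text, such as MYC, RSPO3, PRSS23 and KRT19, were not examined, so the counts leave them out. The criterion was met by 11 of 96 groups, where 4.8 are expected by chance at 1 in 20, and 6 of the 11 were in untreated replicate 5. Among the Wnt genes, untreated replicate 5 was high for WNT7B (121.9 FPKM, the others 79.4 to 83.6), LRP5 (36.95 FPKM, the others 26.4 to 27.3) and SFRP5 (1.14 FPKM, the others 0.499 to 0.577), and low for DKK1 (55.4 FPKM, the others 81.6 to 82.6). Dexamethasone replicate 5 was high for FZD9 (0.763 FPKM, the others 0.351 to 0.416) and low for LGR4 (18.3 FPKM, the others 28.4 to 30.4). WNT7B and DKK1 kept their calls in every alternative tried. Without both libraries numbered 5 their differences were -1.79 and 1.78 on the log2 scale.

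Among the other pathway genes, untreated replicate 5 was high for IGFBP4 (1645 FPKM, the others 957 to 1013) and EPHB2 (22.6 FPKM, the others 16.3 to 17.4). Dexamethasone replicate 3 was high for TPBG (6.6 FPKM, the others 4.41 to 4.78) and TLE3 (3.25 FPKM, the others 2.89 to 2.93), and dexamethasone replicate 1 was low for SOX9 (2.80 FPKM, the others 3.43 to 3.50).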

How the results depend on the processing

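Of the 15 called Wnt genes, 10 kept direction and call in all 18 alternatives: AXIN2, DKK1, DKK3, FZD4, FZD8, LGR6, RNF43, SFRP1, SFRP4 and WNT7B. Of these, LGR6 reached the minimum in untreated libraries alone, so a difference between the groups was built into its choice. Leaving out 1 library at a time gave 12 to 16 called Wnt genes (3 to 4 higher, 9 to 12 lower), 23 to 35 called other pathway genes and 2285 to 3836 called genes in all. With no minimum level 18 Wnt genes were called, where 21.8% of all genes tested were. Removing the GC trend left 12 calls among the Wnt genes, of which 7 were lower, while calls over all genes rose to 4546 (37.5%). Without both libraries numbered 5, 18 Wnt genes, 46 other pathway genes and 5513 genes in all (45.1%) were called. Differences changed sign with the GC trend removed, with or without the block, for FZD3 (-0.02), WNT5B (0.0707), LRP5 (0.10), ZNRF3 (0.12) and IGFBP4 (0.0985), without untreated replicate 5 for LGR4 (-0.0744) and IGFBP4 (0.0293), and without both libraries numbered 5 for FZD1 (-0.0041). Leaving out 1 library at a time gave differences of -0.0744 to 0.456 for LGR4 and -0.3035 to 0.0293 for IGFBP4. None of these was called with either sign. The cause of these changes was not tested.

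With the replicate number as a block, 18 Wnt genes (5 higher, 13 lower), 44 other pathway genes and 5769 genes in all (47.4%) were called, and 5334 genes with the block and the GC trend removed. The block added FZD6 (adjusted p = 0.0130), FZD2 (0.0176) and WNT3 (0.0243). With the block in place and the GC trend removed as well, 15 Wnt genes were called (5 higher, 10 lower). LRP6 (difference -0.40, adjusted p = 0.0236) and WNT9A (0.47, adjusted p = 0.00476) were called there. FZD6, FZD2 and WNT3 were not (adjusted p = 0.125, 0.111 and 0.178), nor were WNT10B and FZD9 (adjusted p = 0.544 and 0.329). Deviations of same-numbered libraries correlated at 0.291, 0.0659, 0.314 and 0.713 for numbers 1, 3, 4 and 5. Since 1 of the 4 was under 0.1 and the labels name no shared source, the numbers were not taken to pair the wells. Not every library correlated best with its own number. Depth could not be fixed, which leaves the counting error of the genes under 1 FPKM unknown.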

Other observations

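MYC, on the list of commonly cited beta-catenin targets, was not called. It had 23.8, 3.09, 2.68 and 4.76 FPKM in untreated libraries 1, 3, 4 and 5, and 22.8, 4.04, 3.93 and 4.23 FPKM in dexamethasone libraries 1, 3, 4 and 5. The library numbered 1 was the highest of each group, far above the other 3, and the difference between groups was 0.13 on the log2(FPKM + 1) scale (interval -1.40 to 1.66, adjusted p = 0.902). LEF1, one of the nuclear partners of beta-catenin and itself a cited target, was listed at 0 in all 8 libraries. CTNNB1, which encodes beta-catenin, rose from 76.4 ± 7.68 to 108 ± 16.6 FPKM (SD, n = 4, adjusted p = 0.0353). These 3 genes were named after their values were seen, and the call of CTNNB1 was not followed through the alternatives.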
